A study of Homo sapiens with 16 samples.

Results

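Gene expression was compared between HCT116 cells lacking p53 (p53-/-) and p53 wild-type HCT116 cells (p53+/+), both treated for 8 hours with Nutlin-3A and Entinostat together, called the combination here. HCT116 is a human colorectal cancer cell line. The comparison rests on 4 of the 16 libraries of the series, 2 per genotype, chosen by their labels. The other 12 libraries hold both genotypes under DMSO vehicle, under 5 µM Nutlin-3A and under 2.5 µM Entinostat, with 2 replicates a group, also at 8 hours. The labels give no separate doses for the drugs within the combination, and they describe the lines as isogenic without saying how the p53-/- line was made or whether it is 1 clone, so a difference between genotypes is a difference between these 2 lines. Nor do they tell whether the replicates were grown separately, so p-values here measure only how far these samples spread, and that spread may be technical. Expression is given as RPKM, reads scaled by gene length and by the mapped reads of the library. Of 20612 genes, 12466 (60.5%) had a mean of at least 0.5 RPKM over the 16 libraries and were tested.

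p53 is a transcription factor that is kept low in unstressed cells by MDM2, a ubiquitin ligase which p53 itself induces, so that the pair forms a feedback loop. Nutlin-3A occupies the p53-binding pocket of MDM2 and thereby stabilises p53, whereas Entinostat inhibits class I histone deacetylases (HDACs) and acts on chromatin in cells with or without p53. Activated p53 induces genes of cell cycle arrest, apoptosis, DNA repair and metabolism, and through the CDK inhibitor p21, the product of CDKN1A, it lowers E2F and cell cycle genes indirectly.

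The libraries held 45902800 to 55507300 alignments, and the 4 combination libraries 49170900 to 52539200. Of 10 colorectal epithelial markers, 6 were above 1 RPKM in both libraries of each genotype, among them EPCAM, KRT8 and CDX2, while VIL1, CDX1, CEACAM5 and LGALS4 were below 1. The summed level of these markers was 4010 to 4640 RPKM in p53+/+ and 2310 to 2660 in p53-/- combination libraries. Single markers weighed heavily in these sums, with a highest value of 2190 RPKM in p53+/+ and 1140 RPKM in p53-/- libraries. Of 10 markers of leukocytes, endothelium and fibroblasts, 2 were above 1 RPKM in each genotype, with sums of 11.8 to 13.4 and 10.8 to 11.4 RPKM, and CD3E was at 0 in all 4 combination libraries. Replicates of the p53+/+ combination group stood farthest apart of the 8 groups, with a median absolute difference between them of 0.203 on the log2 scale and 110 genes differing over 2-fold, against 0.161 and 60 genes in the p53-/- combination group.

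Differences between genotypes are given as p53-/- minus p53+/+ on the log2(RPKM + 0.5) scale with their standard error (SE), which understates the change of genes at low RPKM, and folds are ratios of mean RPKM. A gene was called when its p-value from limma, adjusted over all tested genes by the Benjamini-Hochberg method, was under 0.05. Under the combination 4529 genes were called (36.3% of those tested), of which 1977 were lower in p53-/- cells (15.9%) and 2552 higher (20.5%). Of these, 357 lower and 257 higher genes differed by at least 2-fold, and 51 lower and 3 higher genes by at least 4-fold. So the higher genes were more numerous, but the large differences lay mostly on the lower side. Of the 357 genes at least 2-fold lower, 47 were on the p53 target lists described below, and of the 257 at least 2-fold higher, 48 were on the lists of replication, mitosis and recombination. The p53 lists held 85 of the 12466 tested genes, and the lists of replication, mitosis and recombination held 40, 34 and 19. All these lists were written with earlier results of these data known. The count was 2707 without the second p53-/- combination library and 2359 without the first p53+/+ one. In these bulk samples, fewer cells of a kind and less RNA per cell cannot be told apart.

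MDM2, PLK3 and BTBD19 were among the genes with the widest gap. MDM2 was at 18.6 and 18.4 RPKM in p53-/- and at 368 and 406 RPKM in p53+/+ cells under the combination, a 20.9-fold gap (-4.35 ± 0.12, adjusted p = 8.8e-10). The genotypes were far apart and the replicates close together. In p53+/+ cells that level was 19.2 times the DMSO mean of 20.2 RPKM, whereas in p53-/- cells it was 1.26 times the DMSO mean of 14.7 RPKM.

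PLK3 encodes a polo-like kinase of stress and checkpoint responses. It was at 21.8 and 15.8 RPKM in p53-/- and at 446 and 176 RPKM in p53+/+ cells (-3.88 ± 0.36, adjusted p = 1.9e-05). The groups did not overlap, although the p53+/+ replicates themselves differed widely. Without the first p53+/+ combination library the difference was -3.21 (adjusted p = 5.6e-05), and without the second it was -4.55 (adjusted p = 4.2e-06). The DMSO means of PLK3 were 13.4 RPKM in p53+/+ and 13.2 RPKM in p53-/- cells, a log2 difference of -0.02.

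BTBD19 encodes a BTB domain protein. It was at 0.881 and 0.846 RPKM in p53-/- and at 16.7 and 9.18 RPKM in p53+/+ cells, a 15-fold gap (-3.24 ± 0.22, adjusted p = 1.7e-06). Its DMSO means were 0.371 and 0.456 RPKM, both under the filter value of 0.5 RPKM, so the gap lay almost wholly in the p53+/+ libraries with drug. The p53+/+ combination libraries were by themselves high enough to carry BTBD19 over the filter. Its entry into the test was thus not independent of that group being high. In p53+/+ cells the combination level was 28.4 times the DMSO mean.

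**Figure D1:**
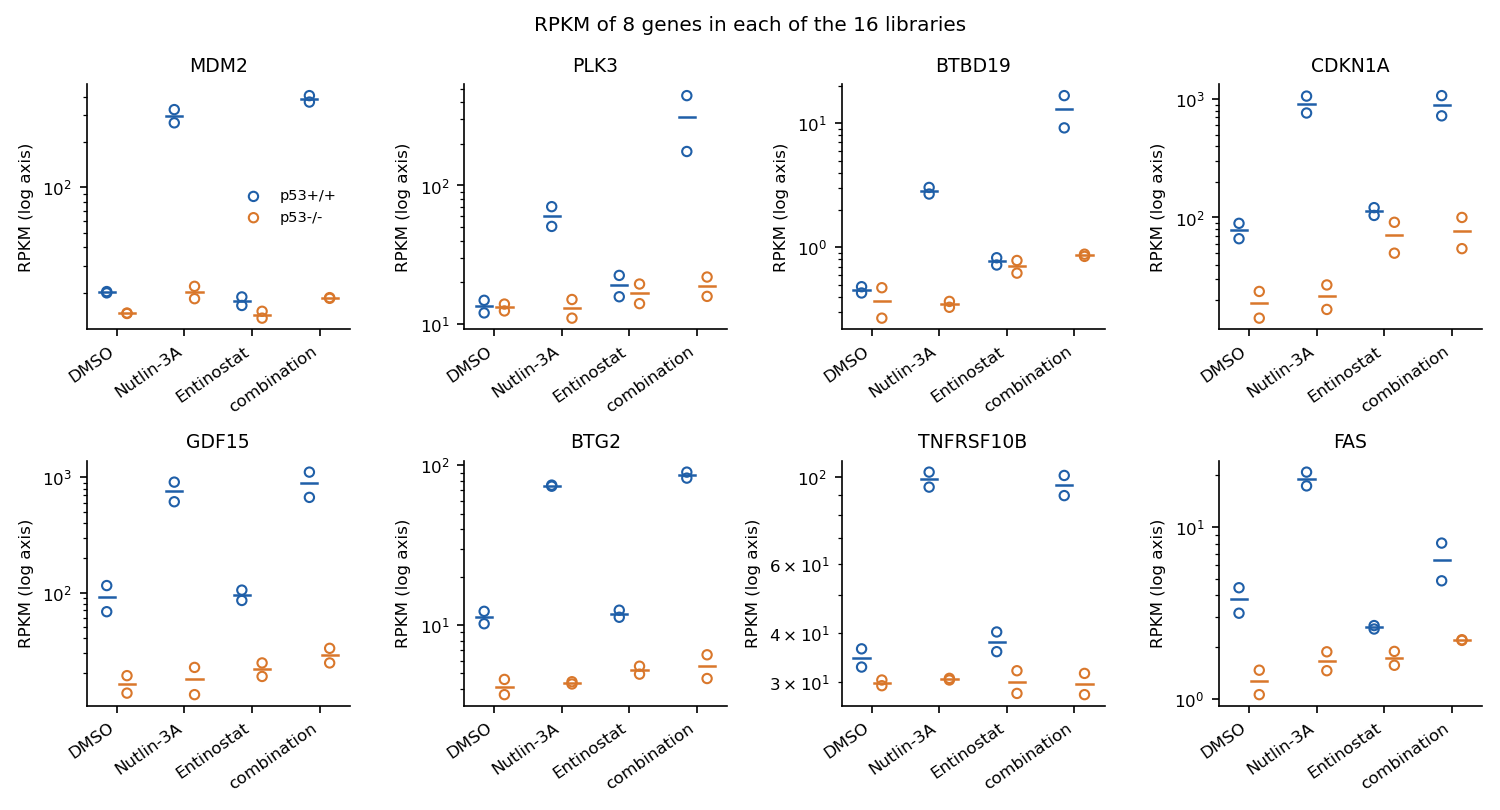
RPKM (log axis) of MDM2, PLK3, BTBD19, CDKN1A, GDF15, BTG2, TNFRSF10B and FAS in each of the 16 libraries, with an open circle for every library, a horizontal bar at each group's mean, p53+/+ in blue and p53-/- in orange. Under the combination the p53+/+ circles lie above the p53-/- circles in all 8 panels, with 368 and 406 against 18.6 and 18.4 RPKM for MDM2, and the p53+/+ circles of PLK3 at 446 and 176 RPKM lie widest apart.

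The p53 targets were grouped in 7 lists by role, written with earlier results of these data known. Together they held 93 genes, of which 85 passed the filter. Of the 85, 75 were lower in p53-/- cells under the combination (88.2%, against 15.9% of all tested genes). None was called higher by limma, and at an unadjusted p under 0.05 the counts were 75 lower and 0 higher. Without the second p53+/+ combination library E2F7 was called higher (0.33, adjusted p = 0.045). Their median difference was -1.05, against 0.02 over all tested genes. The medians of the same 85 genes were -0.22 under DMSO, -0.11 under Entinostat and -1.56 under Nutlin-3A. The median change of these targets from DMSO to the combination was 1.09 in p53+/+ and 0.20 in p53-/- cells.

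Of the 5 tested genes that feed back on p53, 4 were lower (80%, against 15.9% of all tested genes). PPM1D, a phosphatase that dephosphorylates p53 and its kinases, was at 9.07 and 8.38 RPKM in p53-/- against 47.6 and 34.6 RPKM in p53+/+ cells (-2.16 ± 0.13, adjusted p = 8.8e-07). The RNA-binding protein gene ZMAT3 was lower by less (-1.07, adjusted p = 3.4e-04). CCNG1, which encodes cyclin G1, differed by -0.56 (adjusted p = 0.026), a call that was lost without either p53-/- library or without the second p53+/+ one (adjusted p = 0.22 without the latter).

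Of 10 tested arrest genes, 7 were lower (70%, against 15.9% of all tested genes). CDKN1A was at 100 and 54.5 RPKM in p53-/- and at 1070 and 722 RPKM in p53+/+ cells (-3.56 ± 0.37, adjusted p = 4.6e-05). The p53-/- level was not at its baseline, being 4.09 times the DMSO mean of 18.9 RPKM in the same cells. BTG2, an antiproliferative cofactor of mRNA deadenylation, was at 6.52 and 4.63 against 90.8 and 83.3 RPKM (-3.86 ± 0.15, adjusted p = 3e-08). SFN, which encodes stratifin, a G2 arrest factor, differed by -0.88 (adjusted p = 0.0062), and by -0.58 without the second p53+/+ library (adjusted p = 0.047).

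Death genes were lower in 17 of 19 cases (89.5%, against 15.9% of all tested genes). TP53I3, an oxidoreductase gene linked to oxidative stress, was at 2.41 and 1.85 RPKM in p53-/- against 58.6 and 48.4 RPKM in p53+/+ cells (-4.36 ± 0.18, adjusted p = 4.6e-08). TP53INP1, a nuclear protein of stress and autophagy, was at 1.55 and 1.15 against 33.6 and 29.2 RPKM (-4.11, adjusted p = 1.8e-07). BBC3, which encodes the BH3-only protein PUMA, was at 3.13 and 2.3 against 31.4 and 19.9 RPKM (-3, adjusted p = 3.7e-05). In these 3 genes both p53+/+ libraries stood far above both p53-/- libraries. Among all 12466 tested genes, 3703 had both p53+/+ libraries above both p53-/- ones. Lack of overlap was part of the rule that named TP53I3 and TP53INP1, so this is a description.

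The 5 tested genes of DNA repair and nucleotide supply were all lower (100%, against 15.9% of all tested genes). DDB2, the damage sensor of nucleotide excision repair, was at 13.7 and 11.6 RPKM in p53-/- against 90.4 and 64.5 RPKM in p53+/+ cells (-2.55, adjusted p = 2.4e-06). RRM2B, the p53-inducible subunit of ribonucleotide reductase (-1.97), XPC, another excision repair sensor (-1.68), and POLH, a translesion polymerase (-0.87), were lower by less. All 11 tested targets of metabolism and stress were lower too (100%, against the same 15.9%). DDIT4, an inhibitor of mTORC1 signalling, was at 24.6 and 15.5 against 279 and 212 RPKM (-3.60, adjusted p = 1.2e-04). FDXR, a mitochondrial electron donor (-2.92), SESN1, a sestrin that restrains mTORC1 (-2.11), and CYFIP2, a regulator of actin (-1.96), followed. Outside the lists, ARRDC4, an arrestin-domain adaptor, was at 1.2 and 0.991 against 28.4 and 17.7 RPKM (-3.85, adjusted p = 6.2e-06).

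Of 12 tested secreted and surface proteins, 10 were lower (83.3%, against 15.9% of all tested genes). GDF15, a stress-induced cytokine, had the widest difference of the named genes on the log2(RPKM + 0.5) scale, at 32.8 and 24.5 RPKM in p53-/- against 1110 and 670 RPKM in p53+/+ cells, 31-fold (-4.90 ± 0.34, adjusted p = 2.2e-06). SERPINB5, a serpin also called maspin (-2.17), and the tetraspanin CD82 (-2) were lower as well. The remaining list of 23 tested targets had 21 lower (91.3%, against the same 15.9%). It was led by EPS8L2, an actin regulator (-1.99), ANKRA2 (-1.66), the calcium channel ORAI3 (-1.61) and the peptidase PGPEP1 (-1.5). Leaving out some single combination library lowered the count of each p53 target list except that of DNA repair.

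The 10 targets that were not called were BTG1, E2F7, IER5, KITLG, PERP, PLK2, PMAIP1, RCHY1, TGFA and TNFAIP8. With the replicate block, IER5 (-0.25, adjusted p = 0.0061) and PLK2 (-0.42, adjusted p = 0.0065) were called lower too. PMAIP1, which encodes the BH3-only protein NOXA, was at 57.5 and 43.8 RPKM in p53-/- against 63 and 56.4 RPKM in p53+/+ cells, so the libraries overlapped (-0.25, adjusted p = 0.13, and 0.017 without the first p53-/- library). The mean of this gene was 3.13 times that under DMSO in p53+/+ and 2.6 times in p53-/- cells. PLK2, a relative of PLK3, was at 37.9 and 31.5 against 57.5 and 37.4 RPKM (-0.42, adjusted p = 0.2), although under DMSO it was higher in p53-/- cells (1.40, adjusted p = 0.0053, and 0.058 without the first p53-/- DMSO library).

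Sequences just before the gene starts were read from RefSeq (GRCh38.p14), which held a window for 69 of the 85 tested targets. A p53 half-site, the 10-base motif that p53 binds in pairs, occurred in the 250 bases before the start in 10 of these 69 genes (14.5%), against 6.29% of all tested genes with a window and 6.8% of all RefSeq genes. The windows of PLK3, BTBD19, CDKN1A and GDF15 held no match in these 250 bases, which says nothing of p53 binding elsewhere. The 3 targets with a single RefSeq window and a half-site in its last 120 bases before the start are shown 5′ to 3′ on the gene's strand, with the half-site in capitals, to let the motif be read in place. A match is a description, not a site or a cause.
AEN, chr15:88621220-88621339, plus strand: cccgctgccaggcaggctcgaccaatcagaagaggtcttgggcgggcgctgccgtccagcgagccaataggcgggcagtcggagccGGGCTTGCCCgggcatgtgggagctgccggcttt
RAP2B, chr3:153162106-153162225, plus strand: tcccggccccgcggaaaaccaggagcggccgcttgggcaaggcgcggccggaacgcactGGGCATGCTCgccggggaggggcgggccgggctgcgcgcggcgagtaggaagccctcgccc
RPS27L, chr15:63157478-63157597, minus strand: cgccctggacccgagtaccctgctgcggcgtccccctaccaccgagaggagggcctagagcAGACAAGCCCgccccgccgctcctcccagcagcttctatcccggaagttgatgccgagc
These 3 genes were named for the motif. AEN, a nuclease of apoptosis, was at 16.5 and 17.2 RPKM in p53-/- against 26.7 and 24.3 RPKM in p53+/+ cells (-0.58, adjusted p = 4.8e-04). RAP2B, a small GTPase, differed by -0.74 (adjusted p = 1.4e-04) and RPS27L, a ribosomal protein paralog, by -1.44 (adjusted p = 1.6e-06), so their gaps were far smaller than those of MDM2 or PLK3.

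Cell cycle genes went the other way. Of 34 tested genes of G2/M and mitosis, 33 were higher in p53-/- cells (97.1%, against 20.5% of all tested genes), with a median of 1.16. Of 40 genes of DNA replication and G1/S, 33 were higher (82.5%), with a median of 0.87. Of 19 recombination and Fanconi repair genes 18 were higher (94.7%), with a median of 0.96. None of them was called lower by limma, and at an unadjusted p under 0.05 the counts lower were 0, 1 and 0, with 1 replication gene called lower under the block. Without 1 of the combination libraries the counts higher ran from 29 to 33, 25 to 36 and 12 to 19. The gap lay in the p53+/+ cells: the median change of the G2/M genes from DMSO to the combination was -1.28 in p53+/+ and -0.05 in p53-/- cells. Under DMSO the median difference of the G2/M genes between genotypes was -0.02. With Nutlin-3A alone the median differences were 1.2 for G2/M, 1.01 for replication and 1.03 for recombination genes. The G2/M median change from DMSO to Nutlin-3A in p53+/+ cells was -1.28 too. None of these genes was called by limma for a difference between the combination gap and the Nutlin-3A gap. At an unadjusted p under 0.05, 1 replication gene had a lower difference than under Nutlin-3A and 0 genes a higher one.

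HJURP, the chaperone that loads CENP-A at centromeres, was at 29.2 and 28.9 RPKM in p53-/- against 5.64 and 10.5 RPKM in p53+/+ cells (1.84 ± 0.25, adjusted p = 2.7e-04). In p53+/+ cells the mean was 0.288 times that under DMSO, whereas in p53-/- cells the ratio was 1. CENPA, the centromeric histone itself, was at 19 and 16.7 against 4.53 and 6.88 RPKM (1.59, adjusted p = 4.1e-04), and CCNA2, the S and G2 cyclin, at 40 and 42.2 against 9.38 and 15.8 RPKM (1.71, adjusted p = 2.9e-04). NEK2, a centrosomal kinase, differed by 1.5. Outside the list but by the same naming rule, DEPDC1, a mitotic regulator (1.79), ARHGAP11A, a GTPase activator (1.78), SGOL2, a shugoshin that guards cohesion (1.76), and FBXO5, an inhibitor of the anaphase-promoting complex (1.74), were among the 12 widest rises. SGOL2 differed by 1.14 without the first p53+/+ library (adjusted p = 0.0057).

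CCNE2, the cyclin that starts S phase with CDK2, led the replication list at 15.5 and 16.2 RPKM in p53-/- against 2.82 and 4.95 RPKM in p53+/+ cells (1.94 ± 0.22, adjusted p = 7.6e-05). UHRF1, which maintains DNA methylation through replication (1.48), DTL, a substrate receptor of the ubiquitin ligase that degrades licensing factors (1.44), and MCM10, a replication initiation factor (1.41), followed. In the recombination list RAD51AP1, a cofactor of strand exchange, was at 12.8 and 13.4 against 3.13 and 5.44 RPKM (1.55, adjusted p = 1.5e-04). BARD1, the partner of BRCA1 (1.39), the nuclease EXO1 (1.38) and the helicase-like RAD54B (1.28) were higher too. In all of these genes the 2 p53-/- libraries lay above both p53+/+ libraries, as in 4340 of the 12466 tested genes. Lack of overlap was part of the rule that named CCNE2. The others were picked as the largest called members of their lists, so this is a description.

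The cell cycle genes homology region (CHR) is a short promoter element of mitotic genes, and the complex that binds it represses them in arrested cells. Searched as TTTGAA or TTCGAA on both strands, the latter reading the same on either, it occurred in the 250 bases before the start in 15 of the 28 G2/M genes with a RefSeq window (53.6%), against 12.8% of all tested genes and 17.2% of all RefSeq genes. Within 100 bases of the start it occurred in 12 of the 28 (42.9%), against 4.16% of tested and 6.14% of RefSeq genes. In the replication list 5.71% of genes held it in the 250 bases and in the recombination list 6.25%, each far below the share in the G2/M list. The 3 windows that follow, each 120 bases up to the start and 5′ to 3′ on the gene's strand, belong to named mitotic genes that were higher in p53-/- cells, with the CHR match in capitals. The match begins 18 bases before the start in CENPA, 27 in DEPDC1, where it is on the opposite strand, and 111 in HJURP. The windows of CCNA2, NEK2 and ARHGAP11A, named above as higher in p53-/- cells too, held no match in the 250 bases. Here too a match is a description, not a site or a cause.
CENPA, chr2:26785936-26786055, plus strand: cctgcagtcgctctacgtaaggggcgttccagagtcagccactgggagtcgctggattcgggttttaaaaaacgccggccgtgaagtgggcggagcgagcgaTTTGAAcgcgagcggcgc
DEPDC1, chr1:68497083-68497202, minus strand: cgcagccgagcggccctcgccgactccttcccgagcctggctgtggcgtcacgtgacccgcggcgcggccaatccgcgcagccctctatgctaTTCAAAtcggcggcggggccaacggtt
HJURP, chr2:233854536-233854655, minus strand: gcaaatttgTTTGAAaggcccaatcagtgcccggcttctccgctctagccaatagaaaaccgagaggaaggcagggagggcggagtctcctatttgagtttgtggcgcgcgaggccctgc

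**Figure D2:**
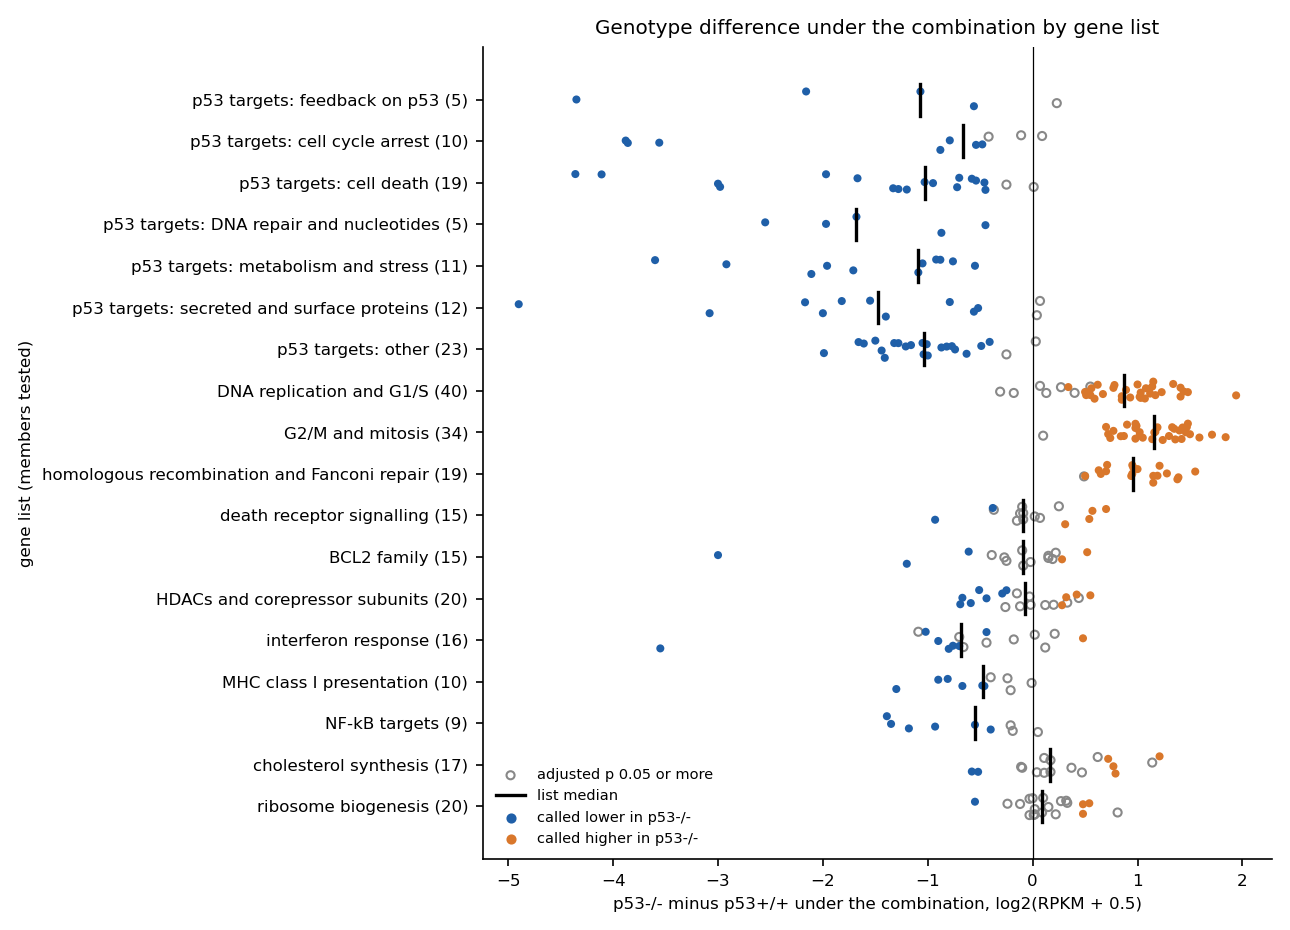
Log2 difference between genotypes under the combination (p53-/- minus p53+/+, log2(RPKM + 0.5)) for each tested member of 18 gene lists, with the number tested in brackets, calls in colour, other genes as open circles and the list median as a black bar. The medians of the 7 p53 lists lie left of 0, the 3 lists of replication, G2/M and recombination lie right with medians of 0.87, 1.16 and 0.96, and the death receptor and BCL2 lists straddle 0 with medians of -0.09.

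The title of the series concerns FLIP, the product of CFLAR, which blocks the initiator caspase at death receptors, so the death machinery was read separately. CFLAR was at 1.19 and 1.65 RPKM in p53-/- and at 1.28 and 1.87 RPKM in p53+/+ cells, so the libraries overlapped, and the difference was -0.10 (95% confidence interval -0.47 to 0.26, adjusted p = 0.66). RPKM per gene does not tell its isoforms apart. CASP8, that caspase, differed by -0.09 (-0.57 to 0.39). Death receptors on the p53 lists differed more. TNFRSF10B, a TRAIL receptor, was at 31.5 and 27.8 against 101 and 89.7 RPKM (-1.67 ± 0.10, adjusted p = 1e-06), and FAS was at 2.19 and 2.21 against 4.86 and 8.05 RPKM (-1.33, adjusted p = 7.5e-04). TNFRSF10C, a decoy TRAIL receptor, was at most 0.103 RPKM in p53-/- libraries and at 4.06 and 3.62 RPKM in p53+/+ ones (-2.98, adjusted p = 5.3e-08).

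Of 15 further tested death receptor genes, 2 were lower (13.3%) and 4 higher (26.7%), with a median of -0.09. Over all tested genes the shares were 15.9% lower and 20.5% higher. The counts of this list and of the BCL2 family (20% lower and 13.3% higher) were near these shares. Lower were BIRC3, an inhibitor of apoptosis protein (-0.93, adjusted p = 3.5e-04), and the adaptor TRADD (-0.38, adjusted p = 0.015, but 0.083 without the second p53-/- and 0.12 without the first p53+/+ library). Among the higher were the adaptor TRAF2 (0.54, adjusted p = 0.001), XIAP (0.70, adjusted p = 0.029) and RIPK1 (0.31, adjusted p = 0.032). The RIPK1 call was lost without the first p53-/- library (adjusted p = 0.21) or either p53+/+ library (0.1 and 0.087). The higher count of this list was 2 without the first p53-/- or the first p53+/+ library, and the lower count was 1 without the second p53-/- or the first p53+/+ library. XIAP, which inhibits caspases, was at 3.07 and 3.97 against 1.48 and 2.54 RPKM, and its call was lost without the second p53-/- library (adjusted p = 0.18) or the first p53+/+ library (0.39, adjusted p = 0.27). In the BCL2 family 3 of 15 tested genes were lower and 2 higher, with 5 lower under the block and 0 higher without the first p53-/- or the first p53+/+ library. Besides BBC3, BAX, an effector of mitochondrial permeabilisation, was at 14.6 and 16.8 against 34.7 and 38.4 RPKM (-1.20 ± 0.10, adjusted p = 9e-06), and BIK differed by -0.61 (adjusted p = 0.0096, but 0.1 without the second p53-/- and 0.11 without the first p53+/+ library). Of the protective members, MCL1 was at 65.6 and 60.9 against 51.2 and 52.6 RPKM (0.28, adjusted p = 0.018, but 0.11 without the first p53-/- and 0.093 without the first p53+/+ library) and BCL2 differed by 0.52 (adjusted p = 0.034), a call lost without the first p53-/- library (0.34, adjusted p = 0.22) or without either p53+/+ library (adjusted p = 0.15 and 0.063). BCL2L1 differed by -0.09 (-0.41 to 0.22).

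Part of the gap was present without drug. Under DMSO, in other libraries, 390 genes were lower (3.13%) and 195 higher (1.56%) in p53-/- cells, or 1634 in all with the replicate number as a block and 239 to 341 without any one of the 4 DMSO libraries. Of the 390, 310 were also lower under the combination, which is 79.5% of the DMSO calls and 15.7% of the combination calls. Of the 195, 153 were also higher, 78.5% and 6%. Over all tested genes 15.9% were lower and 20.5% higher under the combination. A total of 2 genes were called in opposite directions. Of the 357 genes at least 2-fold lower under the combination, 168 differed by less than 0.5 under DMSO on the log2 scale, and of the 257 higher ones 202 did. The share of all tested genes that differed by less than 0.5 under DMSO was not counted, so these 2 counts lack a background.

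Genes known from earlier results to separate the lines without drug kept apart under the combination, which is a description since they were chosen on such differences. BST2, an antiviral membrane protein, was at 0.66 and 0.806 RPKM in p53-/- against 15.5 and 12.4 RPKM in p53+/+ cells, a difference of -3.55 under the combination and -3.60 under DMSO. PROM1, which encodes CD133, was at 0.0643 and 0.0182 against 5.43 and 5.65 RPKM (-3.48), and EHF, an epithelial transcription factor, at 0.217 and 0.118 against 4.82 and 9.63 RPKM (-3.46). On the other side ZBED2, a zinc finger protein, was at 8.83 and 16.9 against 0.682 and 1.15 RPKM (3.19), TIMM17B, a mitochondrial import subunit, at 15.7 and 18 against 4.25 and 4.47 RPKM (1.84), and WNT16 at 33.2 and 44.7 against 7.55 and 11.5 RPKM (1.99). CHPT1, a choline phosphotransferase, was higher by 2.15 under the combination and by 1.57 under DMSO. The annexin ANXA10 (2.22, adjusted p = 0.0061) and the pseudogene PVRIG2P (1.81, adjusted p = 0.018), whose reads may be shared with its parent gene, were among the widest rises. Both calls were lost without the second p53-/- library (adjusted p = 0.066 and 0.13) or without the first p53+/+ one, where PVRIG2P differed by 0.84 (adjusted p = 0.21).

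**Figure D3:**
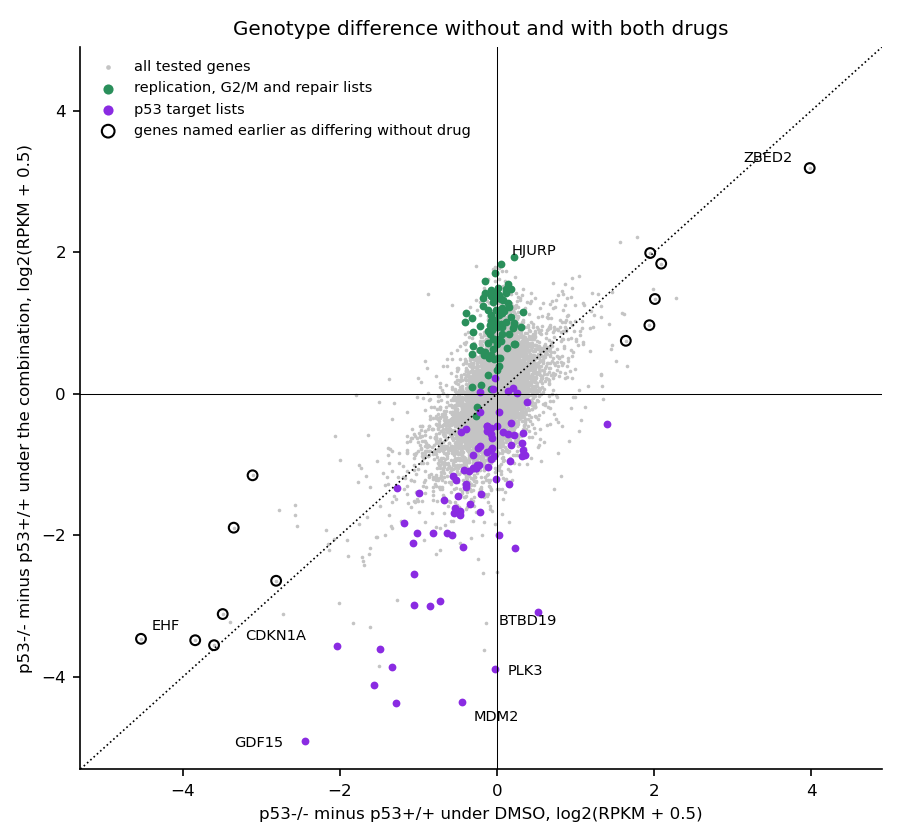
Log2 difference between genotypes under DMSO (horizontal) and under the combination (vertical), both p53-/- minus p53+/+ on the log2(RPKM + 0.5) scale, for 12466 tested genes in grey, with p53 targets in purple, replication, G2/M and recombination genes in green, 13 genes named earlier as differing without drug as black rings, and equality as a dotted line. Most purple points fall below the line, with a median of -1.05 on the vertical axis, most green points rise above it near 0 on the horizontal axis, and the ringed genes lie away from 0 on both axes.

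Whether the genotype gap differed between the combination and DMSO was tested as an interaction. It did in 720 genes, 245 with a lower (1.97%) and 475 with a higher (3.81%) difference under the combination. The split was 426 and 479 after quantile normalization, and the total was 2967 with the replicate block. Every library mattered to this count, which ran from 164 without the second p53-/- DMSO library to 1903 without the second p53+/+ combination library. Of the 85 p53 targets, 45 were among the lower ones, and of the 34 G2/M genes 28, of the 40 replication genes 21 and of the 19 recombination genes 9 were among the higher ones. With the block the last 2 counts were 34 and 18.

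Among the widest lower interactions were those of MDM2 (-3.90 ± 0.16, adjusted p = 2e-07), PLK3 (-3.86, adjusted p = 0.0026), CYP4F2 (-3.45, adjusted p = 0.011), BTBD19 (-3.10, adjusted p = 5.7e-04) and TP53I3 (-3.08, adjusted p = 2.2e-04). CYP4F2 encodes a cytochrome P450 that hydroxylates fatty acids and vitamin K. It was at 0.796 and 0.163 RPKM in p53-/- and at 18.9 and 6.19 RPKM in p53+/+ cells under the combination, from DMSO means of 0.0555 and 0.127 RPKM. The p53+/+ combination libraries were by themselves high enough to carry CYP4F2 over the filter, so its entry into the test was not independent of that group being high. Its replicates were uneven in both genotypes, and the interaction lost its call without the second p53+/+ DMSO library (adjusted p = 0.053). CDKN1A, which already differed under DMSO by -2.04 (adjusted p = 0.0071, lost without the second p53-/- or the first p53+/+ DMSO library at 0.095 and 0.087), had an interaction of -1.52 that was not called (adjusted p = 0.11), and with the replicate block it was (adjusted p = 2.1e-04).

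The widest higher interactions were those of RGS2 (1.96), DEPDC1 (1.82), HMMR (1.82), SGOL2 (1.81), HJURP (1.79) and MKX (1.77). Leaving out 1 library ended the call of RGS2, DEPDC1 and SGOL2 in 7 of 8 cases, of HMMR in 6 and of HJURP in 3, with adjusted p of at most 0.16. HMMR, a spindle protein, was at 23.5 and 21.2 RPKM in p53-/- against 6.48 and 12.8 RPKM in p53+/+ cells, a gap made in the p53+/+ cells, where the mean was 0.32 times that under DMSO. RGS2, a regulator of G protein signalling, had a gap that narrowed, from -3.11 under DMSO to -1.15 under the combination, with a p53-/- level 4.8 times its DMSO mean of 2.54 RPKM. MKX, a homeobox gene of tendon, was at 0.337 and 0.441 in p53-/- and at 0.264 and 0.567 RPKM in p53+/+ cells, where the groups overlapped, after DMSO means of 1.11 and 5.1 RPKM.

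Against Nutlin-3A alone, the genotype gap under the combination differed in 11 genes by limma (0.0882%), all with a higher, that is less negative, difference, and in 789 genes at an unadjusted p under 0.05. With the replicate block it did in 109 genes, 15 lower and 94 higher, and with quantile normalization or a pseudocount of 0.1 in 0. Among the 11 were ABCA12, APAF1, DGKA, DSC3, IKBIP, INPP5D, PLEKHG1, SESN1, UNC5B-AS1 and ZNF219, of which DGKA, PLEKHG1 and ZNF219 were named after their values were seen. The count rose when the second p53+/+ combination library was left out and fell sharply without any other library involved. So the calls rest on each of those other libraries, but not on the second p53+/+ combination library.

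SESN1 had a mean of 22.3 RPKM in p53+/+ cells under Nutlin-3A and was at 16 and 16.9 RPKM under the combination, and its p53-/- level was 1.81 and then 3.64 and 3.23 RPKM (1.19, adjusted p = 0.034). APAF1, the scaffold of the apoptosome, was at 9.69 RPKM under Nutlin-3A and at 6.01 and 7.93 RPKM under the combination in p53+/+ cells, against 2.86 and then 4.63 and 4.56 RPKM in p53-/- cells (1.06, adjusted p = 0.04). In all 11 genes the p53+/+ mean was lower and the p53-/- mean higher under the combination than under Nutlin-3A. They were selected by that interaction, so this is a description. The p53-/- mean of ABCA12 was only 0.0336 RPKM under the combination.

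Other genes among the 11 had the same form. DSC3, a desmosomal cadherin, had an interaction of 1.37, INPP5D, the inositol phosphatase SHIP1, 1.36, IKBIP 1.32 and ABCA12, a lipid transporter, 1.3. UNC5B-AS1 gave 2.41, but it is antisense to UNC5B and the sources do not say whether reads were counted by strand, so reads of the 2 genes may not be told apart. Over the 85 p53 targets the difference was less negative under the combination than under Nutlin-3A in 73 genes, or 85.9%, against 56.3% of all tested genes. At an unadjusted p under 0.05 it was so in 40 of the 85, with 3 in the other direction. After adjustment over all genes 3 remained, and 21 with the replicate block.

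Of the 12 p53 targets on the other side of equality, PLK3 had the widest change. PLK3 averaged 60.5 RPKM in p53+/+ cells under Nutlin-3A, against 446 and 176 RPKM under the combination, and its gap went from -2.17 to -3.88. That interaction of -1.71 (95% confidence interval -2.81 to -0.61) was not called (adjusted p = 0.43), but it was with the replicate block (adjusted p = 0.012) and without the second p53+/+ combination library (-2.38, adjusted p = 0.028). Without the first p53+/+ combination library it was -1.04 (adjusted p = 1). BTBD19 averaged 2.87 RPKM in p53+/+ cells under Nutlin-3A and its gap went from -1.99 to -3.24, an interaction of -1.25 that was not called (adjusted p = 0.27, and 0.06 with the block). It was called without the second p53+/+ combination library (-1.67, adjusted p = 0.013).

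TNFRSF10B moved little between these treatments, with a gap of -1.68 under Nutlin-3A and -1.67 under the combination. Its interaction was 0.01 (95% confidence interval -0.3 to 0.33). For MDM2 the interaction was -0.50 (-0.86 to -0.14), which was not called (adjusted p = 0.55, and 0.17 with the block). Before adjustment the MDM2 interval lay wholly on the side of a wider gap under the combination. FAS averaged 19.1 RPKM in p53+/+ cells under Nutlin-3A but was at 4.86 and 8.05 RPKM under the combination, an interaction of 1.85 (adjusted p = 0.056, and 0.011 with the block). For CDKN1A it was 1.81, with similar p53+/+ means of 911 RPKM under Nutlin-3A and 896 RPKM under the combination but a p53-/- mean of 21.8 RPKM under Nutlin-3A against 100 and 54.5 RPKM under the combination. That was not called (adjusted p = 0.42) except with the block (adjusted p = 7.7e-04). CFLAR averaged 3.92 RPKM in p53+/+ cells under Nutlin-3A, where its gap was -0.61, and the interaction was 0.50 (adjusted p = 0.8).

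**Figure D4:**
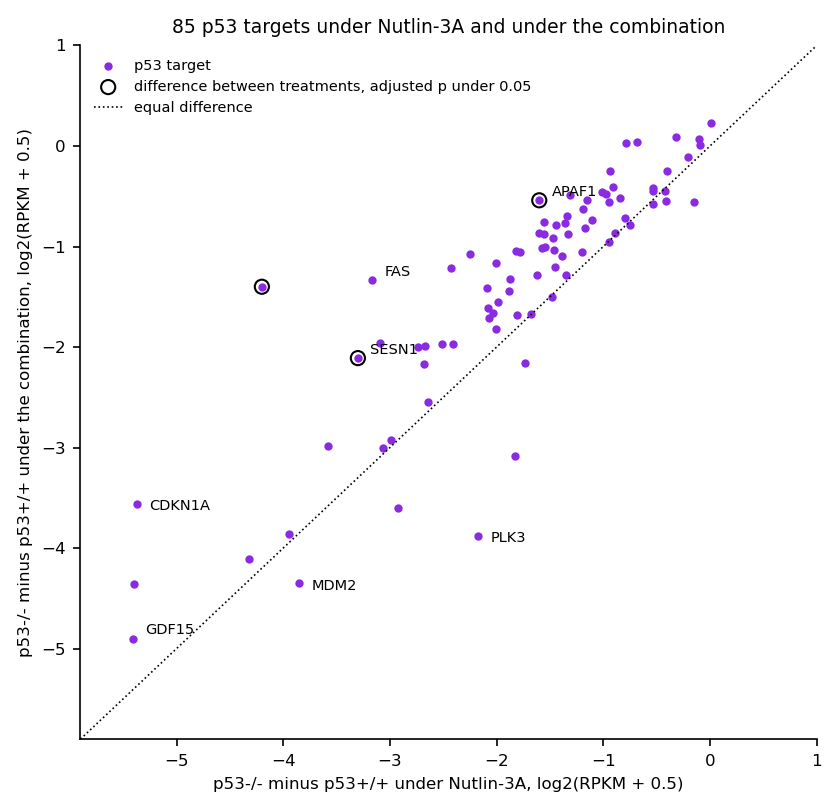
Log2 difference between genotypes under Nutlin-3A (horizontal) and under the combination (vertical), p53-/- minus p53+/+ on the log2(RPKM + 0.5) scale, for the 85 tested p53 targets, with equality as a dotted line and black rings on the 3 targets whose differences differed by limma. Of the 85 points 73 lie above the line, with FAS and CDKN1A among those far above it, and PLK3 lies farthest below.

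**Figure D5:**
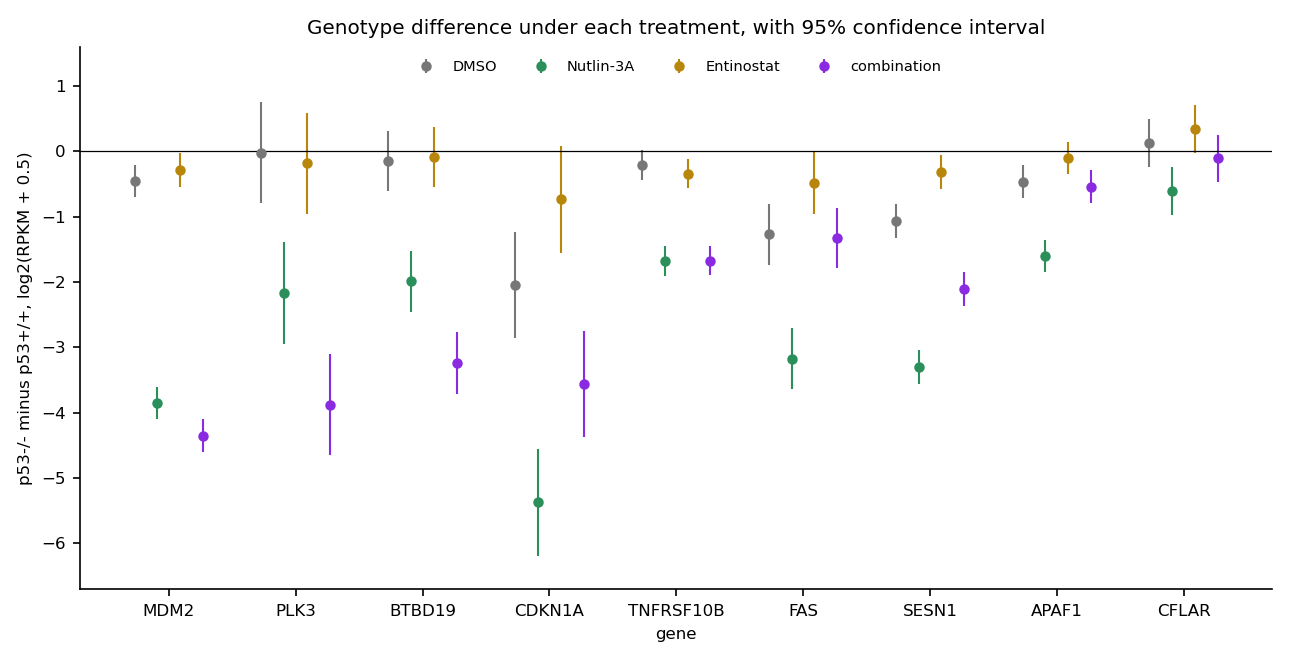
Log2 difference between genotypes (p53-/- minus p53+/+, log2(RPKM + 0.5)) under DMSO, Nutlin-3A, Entinostat and the combination for 9 genes, with limma's 95% confidence interval as a bar. PLK3 goes from -2.17 under Nutlin-3A to -3.88 under the combination and SESN1 from -3.30 to -2.11, while CFLAR under the combination spans 0.

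Against Entinostat alone, the gap differed in 439 genes, 168 lower (1.35%) and 271 higher (2.17%), or 257 and 260 after quantile normalization and 1776 in all with the block. This count ran from 134 without the first p53-/- Entinostat library to 1094 without the second p53+/+ combination library, and all 8 libraries moved it by over 1.5 times. Of the p53 targets 48 of 85 were lower, and of the G2/M genes 28 of 34 were higher. MDM2 (-4.06), PLK3 (-3.69), TP53I3 (-3.43), BTBD19 (-3.16) and CYP4F2 (-2.95) were among the widest on the lower side. HJURP (1.83), SGOL2 (1.77), HMMR (1.76), DEPDC1 (1.73), CDCA2, a mitotic phosphatase regulator (1.68), and FBXO5 (1.67) led the higher side. Of these, the calls of SGOL2, HMMR and DEPDC1 were lost without 7 of the 8 libraries, that of HJURP without 6 and that of CYP4F2 without 4. These comparisons share the 4 combination libraries with those above, so their likeness is no separate evidence.

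Of 10 tested genes of MHC class I presentation 6 were lower (60%, against 15.9% of all tested genes), with a median of -0.47. HLA-E was at 3.89 and 3.32 RPKM in p53-/- against 11.3 and 8.16 RPKM in p53+/+ cells (-1.3, adjusted p = 3.6e-04), TAP1, a peptide transporter, differed by -0.90, and B2M, the light chain, by -0.81. B2M and HLA-E were lower under DMSO too (-0.90 and -0.94), a call that HLA-E lost without either p53-/- or the first p53+/+ DMSO library (adjusted p = 0.055, 0.1 and 0.14). None of the 10 was called higher by limma, and 0 were at an unadjusted p under 0.05. Of 16 interferon response genes 7 were lower (43.8%) and 1 higher (6.25%, against 20.5% of all tested genes), with a median of -0.68. With the block 11 were lower and 2 higher. Under DMSO 4 of the 16 were already lower (against 3.13% of all tested genes), with a median of -0.32. An interaction with DMSO was called by limma in 0 of the 16. At an unadjusted p under 0.05 it was lower in 2 and higher in 2. ISG15, a ubiquitin-like protein, was at 83.8 and 70.2 against 188 and 130 RPKM (-1.02, adjusted p = 0.0025), and IRF1 differed by -0.80 (adjusted p = 2.8e-04).

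Of 9 tested NF-kB targets 6 were lower (66.7%, against 15.9% of all tested genes), with a median of -0.55. None was called higher by limma, and 0 were higher at an unadjusted p under 0.05. The chemokine CXCL8 was at 1.58 and 0.987 RPKM in p53-/- against 5.04 and 3.14 RPKM in p53+/+ cells (-1.35, adjusted p = 8.3e-04), after DMSO means of 0.429 and 0.408 RPKM. Its interaction with DMSO was called (-1.39, adjusted p = 0.027), but the call was lost without the second p53-/- or the first p53+/+ combination library or any 1 of the DMSO libraries (adjusted p from 0.071 to 0.11). CXCL1 (-1.18) and TNFAIP2 (-1.39) were lower too. Among Wnt targets, 1 of 10 was lower (10%, against 15.9% of all tested genes). It was MYC, at 60.6 and 81.5 against 194 and 174 RPKM (-1.38, adjusted p = 5.8e-05). With the block 2 of the 10 were lower and 3 higher. The MYC mean was 0.594 times that under DMSO in p53-/- and 1.18 times in p53+/+ cells. KRT19, an epithelial keratin, was at 810 and 473 against 2190 and 1360 RPKM (-1.48, adjusted p = 0.0041), whereas EPCAM was higher (0.49, adjusted p = 0.0018). Of the 6 tested epithelial markers 3 were lower (50%) and 1 higher (16.7%), against 15.9% and 20.5% of all tested genes. Under DMSO 0 of the 6 were called in either direction.

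Of 20 HDACs and corepressor subunits, of several HDAC classes, 7 were lower (35%) and 4 higher (20%), with a median of -0.07. Over all tested genes 15.9% were lower and 20.5% higher. Without 1 combination library the lower count was 4 (without the first p53-/- library) or 5, and the higher count 2 without either p53-/- library, 1 without the first p53+/+ and 6 without the second. HDAC11 (-0.69), HDAC5 (-0.67) and HDAC2 (-0.59) were lower and RCOR1, the CoREST scaffold, was higher (0.55). HDAC2 was at 13.2 and 14.4 RPKM in p53-/- against 20.9 and 21.3 RPKM in p53+/+ cells and was lower under DMSO as well (-0.96). HDAC1, a class I member, differed by -0.15 (-0.42 to 0.11), which was called with the block (adjusted p = 0.044). Of 17 cholesterol synthesis genes 2 were lower (11.8%) and 4 higher (23.5%), near the shares of all tested genes. With the block 8 of them were higher. The higher count was 2 without the first library of either genotype and 7 without the second p53-/- library, and the lower count was 1 without any 1 of the libraries but the first p53-/- one. IDI1, an isoprenoid isomerase, was at 31.4 and 21.1 against 9.04 and 13 RPKM (1.21, adjusted p = 0.0012). Ribosome biogenesis genes had 1 lower (5%) and 3 higher (15%) of 20, both below the shares of all tested genes, with 8 higher under the block. Of this list DKC1, a pseudouridine synthase, differed by 0.54.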

How the data were processed

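Polyadenylated RNA of 16 samples was sequenced from stranded libraries, per the labels' protocols. The deposited table holds RPKM, computed by the authors; the submitters' processing notes name Bowtie2, hg19 and Partek. Versions, gene models and the use of strand in counting were not given in the sources used here. Every column was matched to a sample by name.

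From these values log2(RPKM + 0.5) was computed for 12466 genes with a mean of at least 0.5 RPKM. limma 3.58.1 (R 4.3.3) fitted 8 group means over 16 libraries, with 8 residual degrees of freedom, an intensity trend in the variance prior and Benjamini-Hochberg adjustment. The script was tested on simulated data. RPKM holds no counts, so no count model was used, and genes at low RPKM rest on few reads.

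Replicate numbers come from the labels. Differences between replicates 1 and 2 correlated in all 28 pairs of groups (r from 0.27 to 0.78, median 0.43, and 0.6 between the combination groups). The numbers may thus mark paired samples. The main fit did not use them, so its p-values do not take such pairing into account. A fit with the number as a block was an alternative. Other alternatives changed the pseudocount, filter, scaling, trend and libraries.

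Named genes were 8 chosen ones, up to 12 per direction under the combination, 6 per direction in each interaction (mean of at least 1 RPKM) and up to 4 called members a list, with members of the death receptor, BCL2 and line-difference lists free to be named. The 12 per direction were taken only from called genes whose combination libraries did not overlap between genotypes. Members and lists were chosen with earlier results of these data known. Some genes that this rule selects are not reported here.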

Additional observations from a re-analysis of the deposited data

Results flagged for a closer look

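The genotype difference under the combination differed from that under DMSO in 720 genes, by limma's test of the difference itself. It differed from that under Nutlin-3A in 11 genes by the same test. It differed from that under Entinostat in 439 genes.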

How the results depend on the processing

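With 2 replicates a group and RPKM only, the counts of calls depend on single libraries and on the fit more than the differences do. No called difference of a gene named here changed sign under the alternatives run on it. With the replicate block 6591 genes were called in the genotype difference under the combination. The genotype difference under the combination was called in 1688 genes when only the libraries compared were fitted, and in 2359 to 4783 genes without 1 library. Against DMSO the count was 2967 with the replicate block, 216 with only the compared libraries and 164 to 1903 without 1 library. Against Entinostat these were 1776, 52 and 134 to 1094. Against Nutlin-3A the count was 109 with the replicate block, 0 with a pseudocount of 0.1 and 17 with one of 1, 43 with no filter, 7 with a filter at 1 RPKM, 0 with quantile normalization, 21 with no intensity trend, 0 with only the compared libraries and 0 to 29 without 1 library. Under DMSO it was 1634 with the replicate block and 239 to 341 without 1 library. The causes were not tested, except that fitting fewer libraries leaves fewer degrees of freedom. The pairing by replicate number adds calls in each comparison, and every call made without the block was kept with it.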

Other observations

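Enzymes of serine and one-carbon metabolism, which the integrated stress response induces, were called in both directions under the combination. PSAT1, an aminotransferase of serine synthesis, was at 59.8 and 62.2 RPKM in p53-/- against 35.1 and 40.4 RPKM in p53+/+ cells (0.69 ± 0.10, adjusted p = 3e-04 by limma), and MTHFD2, a mitochondrial folate enzyme, was higher by 0.50 (adjusted p = 0.0011). PHGDH, which starts the same serine pathway, was lower (-0.57, adjusted p = 0.043, but 0.25 without the second p53-/- and 0.28 without the first p53+/+ library), and so was SHMT2, the mitochondrial serine hydroxymethyltransferase (-0.31, adjusted p = 0.0055). Of the 9 tested genes of the list, 2 were lower and 2 higher (22.2% each). Over all tested genes 15.9% were lower and 20.5% higher, so the split of the list was near these shares.

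The mesenchymal regulator TWIST1 was listed at 0 in both p53-/- combination libraries and stood at 1.55 and 1.07 RPKM in p53+/+ ones, and its p53-/- mean under DMSO was listed at 0 too. CASP4, an inflammatory caspase, was at 0.669 and 0.524 against 9 and 8.86 RPKM, and its DMSO means of 0.339 and 8.93 RPKM were as far apart. Of the neuronal genes 1 of 9 was lower (11.1%, against 15.9% of all tested genes). It was SYT1, a synaptic vesicle protein (-0.81, adjusted p = 4.4e-04).

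PLK3 and BTBD19 lie close together in RefSeq's gene order, with DYNLT4 (TCTEX1D4 in the files) between them and BEST4 before PLK3. These 2 neighbours were under the filter and not tested. In p53+/+ combination libraries BEST4 was at 0.557 and 0.359 RPKM and TCTEX1D4 at 0.197 and 0.125 RPKM, against 446 and 176 RPKM for PLK3.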
